A study of Homo sapiens with 6 samples.

Results

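The 37 genes described here build, sulfate, trim or carry heparan sulfate and chondroitin sulfate. They comprise SULF1 and SULF2, the enzymes of chain synthesis and sulfation, heparanase, a sulfate transporter, the 4 syndecans and 2 glypicans. They were taken by symbol from the 23355 gene entries of a read count table. All 37 were found, and 36 passed the filter on low counts and were tested among 14053 genes.

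HFL-1, a line of human fetal lung fibroblasts, received, by Lipofectamine RNAiMAX, either the non-targeting siRNA siNTC or one of a pair of siRNAs against TAZ (siTAZ #1 and siTAZ #2). TAZ is a transcriptional coactivator of the Hippo pathway and is encoded by WWTR1. Total RNA was extracted 48 h later, and 2 libraries per group, 6 in all, were read on an Ion Proton. All libraries came from 1 cell line, a knockdown by siRNA leaves part of the transcript in place, and the study's methods state duplicate transfections for the TAZ siRNAs, without saying whether the siNTC libraries were made in the same way.

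Heparan sulfate and chondroitin sulfate are long sugar chains carried by proteoglycans at the cell surface and in the matrix. Both are built on the same linker of xylose, galactose and glucuronic acid on a core protein, after which one set of enzymes extends the chain as heparan sulfate and another as chondroitin sulfate. Sulfotransferases and epimerases then write a pattern on the chain, which sets how it holds growth factors, their receptors and matrix proteins. In lung fibroblasts these chains are part of how cells bind fibronectin, fibroblast growth factors and transforming growth factor beta.

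WWTR1 stood at 132 and 131 TMM-normalized CPM (counts scaled to the size of the library) with siNTC, 26.4 and 28.4 with siTAZ #1 and 46.1 and 43.1 with siTAZ #2, a log2 fold change of -2.26 and -1.56, each with a standard error of 0.10 (FDR 0.00062 and 0.00068). Libraries held 15648055 to 32078188 counts. In siTAZ #1 replicate 2, counts were nearly missing from RANGAP1 on chromosome 22 to the end of Y, which held 0.246% of its counts against 3.58% to 3.74% in the other libraries. None of the 37 genes lies there (0 of 37), but the spread shared by all tests was wider with those genes in the fit. Its common dispersion was 0.0807 with them and 0.0164 without them. Sums of markers (10 genes each) ran from 23200 to 35000 CPM for fibroblasts and from 41.6 to 65 for epithelial cells. The 6 endothelial and the 6 immune markers summed to 26.7 to 47.4 and 38.2 to 75.9 CPM, with PECAM1, PTPRC and CDH1 near 0, though no marker was at 0 in every library. A single gene made up most of each sum: TEK (24 to 44.8 CPM) of the endothelial and CD68 (37.8 to 75.4) of the immune markers. KRT18 (29.7 to 50.4) likewise led the epithelial sum. TEK and CD68 were lower with siTAZ #2, by log2 fold changes of -0.67 and -0.79 (FDR 0.013 and 0.012). The sum of 10 proliferation genes was 1700 and 1710 CPM with siNTC, 1770 and 1820 with siTAZ #1, and 877 and 828 with siTAZ #2. With siTAZ #1 these genes did not move as one: at an FDR under 0.05, 1 fell (TOP2A) and 2 rose (MKI67 and PCNA). With siTAZ #2, 8 fell and 0 rose. The sum of 8 interferon-induced genes ran from 78.4 to 92.8 CPM. In these bulk samples, fewer cells of a type and less RNA per cell cannot be told apart.

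Most of these genes moved, and the siRNAs moved them in different ways. The test was edgeR's quasi-likelihood test with Benjamini-Hochberg adjustment over all 14053 genes, and a gene was called at an FDR under 0.05. With siTAZ #1, 6 of the 36 were lower (9.78% of all genes tested) and 12 higher (10.8%). With siTAZ #2, 11 were lower (14.4%) and 10 higher (14.1%). The siRNAs differed from each other for 20 of the 36 (28.6% of all genes), of which 9 were lower (13.4%) and 11 higher (15.2%) with siTAZ #1. Both siTAZ #1 libraries lay below both siTAZ #2 libraries for 16 of the 36 (33% of all genes) and above them for 17 (32.6%). SULF1, CHSY1 and SDC3 fell with both siRNAs, and in all 3 every siTAZ library was below both controls, as in 17.5% of all genes. In 9 of the 36 every siTAZ library was above both controls, against 18.6% of all genes. B3GAT3, CSGALNACT2, GLCE and HS2ST1 rose with both, while EXTL2, SDC1 and SDC4 moved in opposite ways. Among all genes, 3.74% were lower with both, 5.49% higher with both and 1.52% called in opposite ways. The siRNAs share their siNTC libraries, so a gene's values against siNTC are not independent of each other.

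The median log2 fold change of the 36 was 0.14 with siTAZ #1 and 0.06 with siTAZ #2, against 0.02 and 0.01 over all genes. Their median absolute change was 0.56 and 0.68, against 0.37 and 0.41. They were also better measured than most, with a median count of 1039 against 536.3, and the part of that depth in the share called was not tested. Of the 36, 29 were called in some comparison, against 44.3% of all genes, and 7 in none: B4GALT7, EXT2, NDST2, SULF2, HPSE, CHST11 and SDC2.

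**Figure D1:**
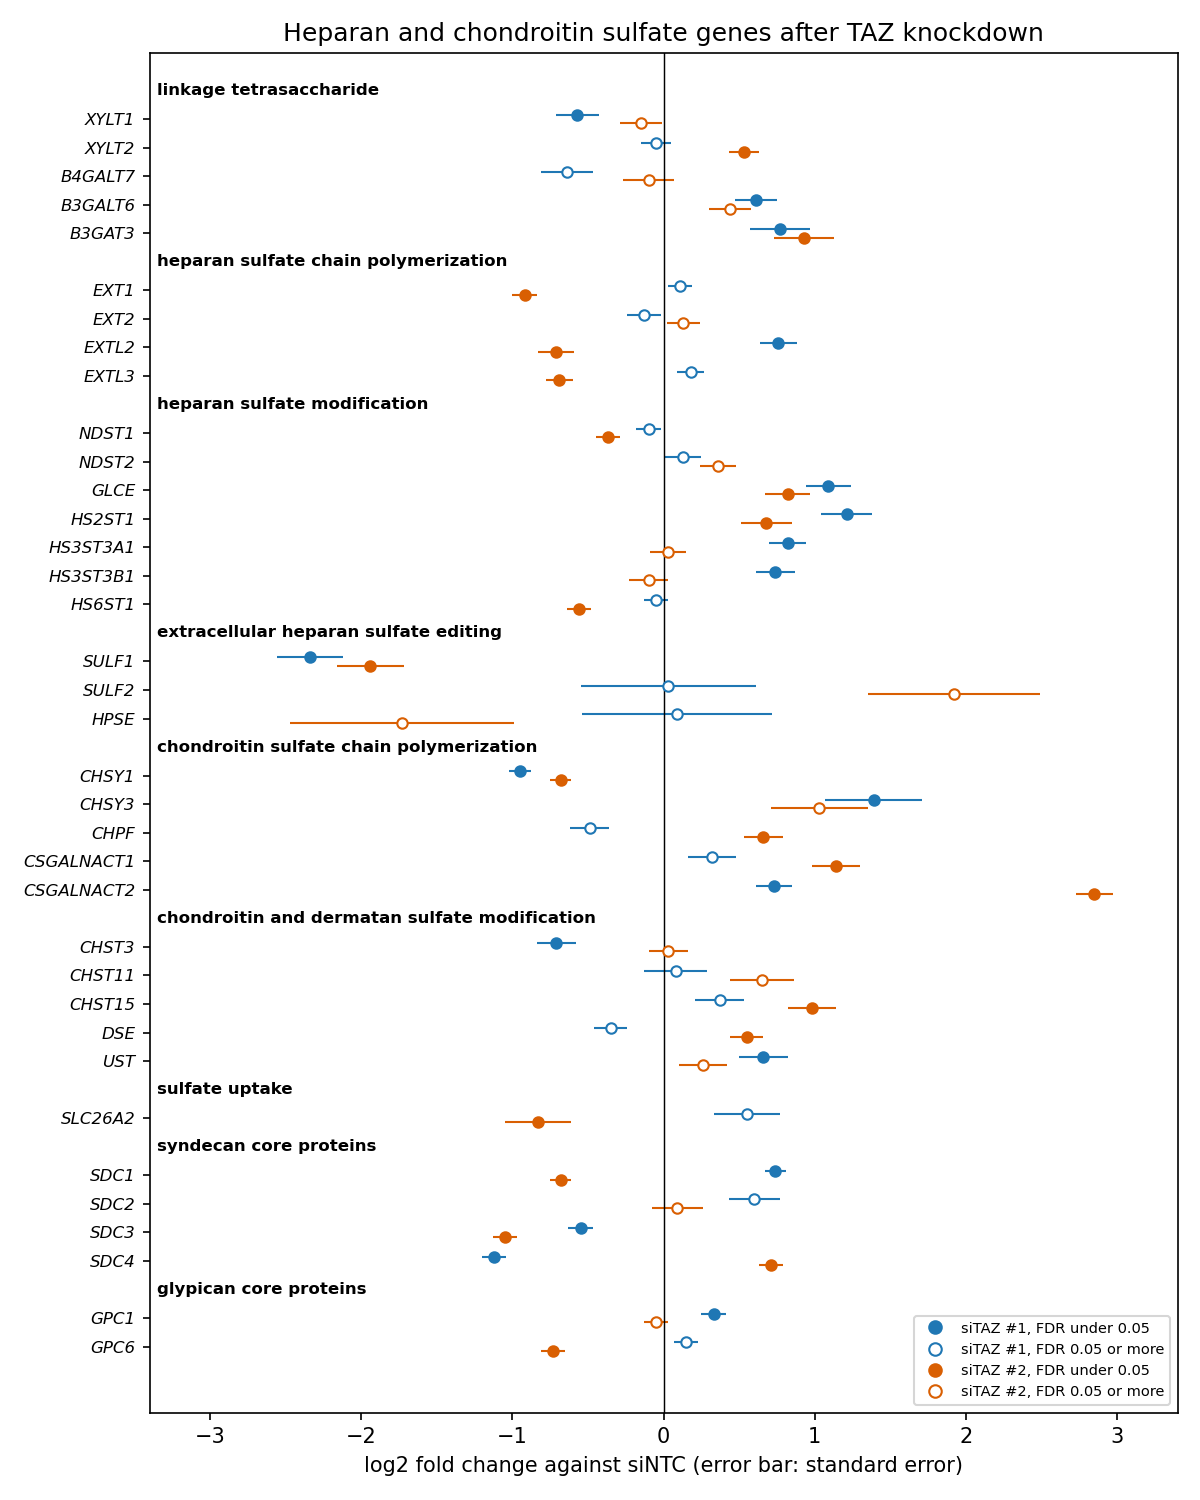
Log2 fold change against siNTC (horizontal axis) of each gene tested, ordered by role, for siTAZ #1 and siTAZ #2, with bars for the standard error and filled points for an FDR under 0.05. The points of EXTL2, SDC1 and SDC4 lie on opposite sides of 0, and CSGALNACT2 with siTAZ #2 lies farthest to the right at 2.85.

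In control cells 4 core proteins headed these transcripts by level per length. Per kilobase of the gene's reference transcript, GPC1 led at 83.5 CPM, followed by SDC4 at 79.4, SDC3 at 71.3 and SDC1 at 60.4. The other core proteins, GPC6 (20.4) and SDC2 (13.8), stood lower, at ranks 12 and 16. EXT1, at 51.6, led the enzymes. HS6ST1 (48.6), NDST1 (39.8) and CHSY1 (36.7) came next. The lower end held SULF1 at 2.27, CHST11 at 1.27, CHSY3 at 0.837, SULF2 at 0.349, HPSE at 0.138 and HS3ST1 at 0.0486. Neighbours in this order often lie within the spread of their libraries, and the length rests on 1 transcript per gene.

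The syndecans are transmembrane core proteins that carry mainly heparan sulfate and act as co-receptors for growth factors and integrins. SDC1 and SDC4 moved in opposite ways with the siRNAs, SDC3 fell with both and SDC2 passed the test with neither. SDC1 (chr2:20400558-20425194, GRCh37) stood at 188 and 194 CPM in siNTC, 321 and 315 with siTAZ #1, and 122 and 117 with siTAZ #2. Its siTAZ #1 libraries lay above and its siTAZ #2 libraries below both controls, with no overlap of groups. SDC1 rose 1.67-fold with siTAZ #1 (log2 fold change 0.74 ± 0.07, SE, FDR 0.0027) and fell to 0.626 of siNTC with siTAZ #2 (-0.68 ± 0.07, FDR 0.0023).

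SDC4 (chr20:43953928-43977064, GRCh37), a syndecan of focal adhesions, went the other way. It stood at 205 and 211 CPM in siNTC, 94.3 and 96.6 with siTAZ #1, and 351 and 327 with siTAZ #2. Again no library of one group overlapped another group. The log2 fold change was -1.12 ± 0.08 (FDR 0.001) with siTAZ #1 and 0.71 ± 0.08 (FDR 0.0024) with siTAZ #2. Between the siRNAs, SDC4 was lower with siTAZ #1 by a log2 difference of -1.83 ± 0.08 (FDR 0.0005), and SDC1 higher by 1.41 ± 0.07 (FDR 0.00053).

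SDC3 (chr1:31342313-31381605, GRCh37) is the syndecan best known from nerve cells. Its values were 370 and 378 CPM in siNTC, 258 and 253 with siTAZ #1, and 173 and 189 with siTAZ #2. All siTAZ libraries were below both controls, and those of siTAZ #2 lowest. SDC3 fell by 0.55 ± 0.08 on the log2 scale with siTAZ #1 (FDR 0.0076) and by 1.05 ± 0.08 with siTAZ #2 (FDR 0.00092), and the siRNAs differed by 0.50 ± 0.08 (FDR 0.0075). Without siNTC replicate 1 or 2, the change of SDC3 with siTAZ #1 had an FDR of 0.071 or 0.077. SDC2, known from mesenchymal cells, stood at 42.5 and 48.6 CPM in siNTC, 74.9 and 63.4 with siTAZ #1, and 42.7 and 54.1 with siTAZ #2. Both siTAZ #1 libraries of SDC2 were above the others, but its log2 fold change of 0.60 ± 0.17 missed the threshold (FDR 0.053), and with siTAZ #2 it was 0.09 ± 0.17 (FDR 0.73). The first of these passed in 7 of 17 other settings, those without siTAZ #1 replicate 1 or 2 included.

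**Figure D2:**
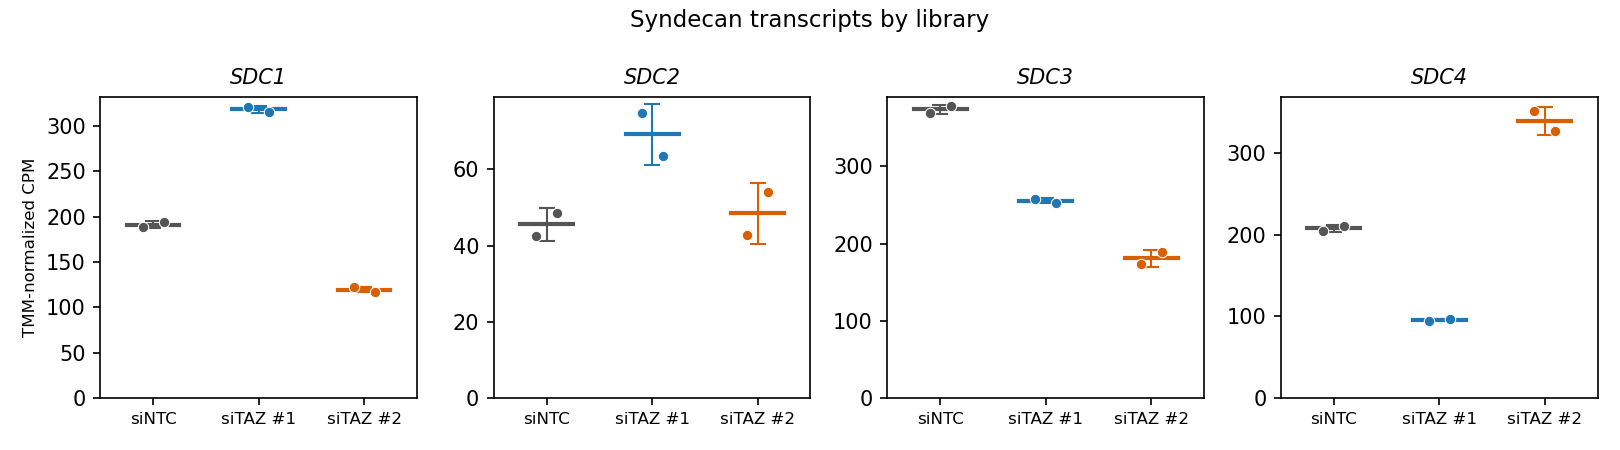
TMM-normalized CPM (vertical axis) of the 4 syndecans in each library, with a line for the mean and bars for the SD of the 2 libraries of a group. SDC1 runs from 117 to 321 CPM with siTAZ #1 on top, SDC4 from 94.3 to 351 with siTAZ #2 on top, and SDC3 is highest in siNTC.

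The make-up of the syndecan pool changed while its summed level moved little. Summed per kilobase, the 4 syndecans gave 221 and 229 CPM in siNTC, 209 and 204 with siTAZ #1, and 219 and 215 with siTAZ #2. SDC4 made up 35.4% and 35.2% of this sum in siNTC, 17.2% and 18.1% with siTAZ #1, and 61.4% and 58.3% with siTAZ #2. SDC1 made up 26.9% and 26.8% in siNTC, 48.5% and 48.8% with siTAZ #1, and 17.6% and 17.3% with siTAZ #2. The leading syndecan was thus SDC1 with siTAZ #1 and SDC4 with siTAZ #2. SDC3 held 31.9% and 31.5% in siNTC, 23.5% and 23.6% with siTAZ #1, and 15.1% and 16.8% with siTAZ #2. The ratio of SDC4 to SDC1 per kilobase, which does not depend on how libraries were scaled to each other, was 1.32 in both siNTC libraries, 0.356 and 0.371 with siTAZ #1, and 3.49 and 3.38 with siTAZ #2. These shares and ratios are descriptions of the same counts, with no test of their own.

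**Figure D3:**
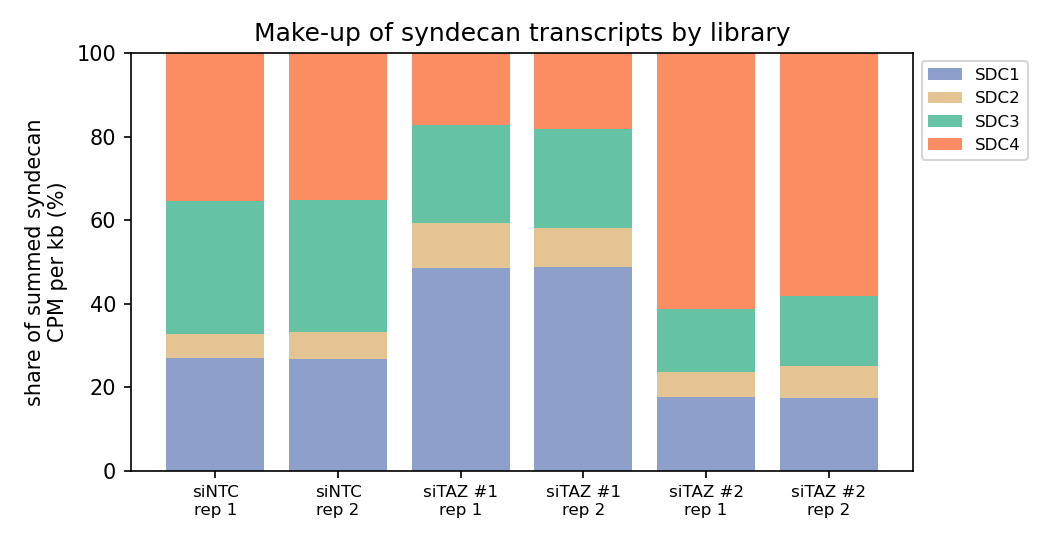
Share of each syndecan in the summed syndecan CPM per kilobase (vertical axis, %) in each of the 6 libraries, as stacked bars. SDC4 takes 35.4% and 35.2% in siNTC, 17.2% and 18.1% with siTAZ #1 and 61.4% and 58.3% with siTAZ #2.

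The glypicans are heparan sulfate carriers held to the membrane by a lipid anchor. GPC1 (chr2:241375080-241407493, GRCh37) stood at 304 and 317 CPM in siNTC, 378 and 401 with siTAZ #1, and 303 and 295 with siTAZ #2. It was above the other libraries with siTAZ #1 only, by 0.33 ± 0.08 (FDR 0.032), and was -0.05 ± 0.08 with siTAZ #2 (FDR 0.63). The siRNAs differed for GPC1 by 0.38 ± 0.08 (FDR 0.015). Its call with siTAZ #1 was lost when either siNTC library, siTAZ #1 replicate 2 or either siTAZ #2 library was left out, and the call between the siRNAs when either siTAZ #2 library was.

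GPC6 (chr13:93879060-95060274, GRCh37) showed 142 and 149 CPM in siNTC, 158 and 164 with siTAZ #1, and 90.8 and 85.2 with siTAZ #2. The siTAZ #2 libraries were below all others. GPC6 fell by 0.73 ± 0.08 with siTAZ #2 (FDR 0.0025), was 0.15 ± 0.08 with siTAZ #1 (FDR 0.25), and differed between the siRNAs by 0.87 ± 0.08 (FDR 0.0016). An antisense RNA overlaps 7.18% of its transcript, and without a stated strand setting their reads cannot be told apart.

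The sugar linker is made by xylosyltransferases (XYLT1 and XYLT2), galactosyltransferases (B4GALT7 and B3GALT6) and the glucuronyltransferase B3GAT3. Of these 5 genes, 1 was lower and 2 higher with siTAZ #1 (9.78% and 10.8% of all genes), and 0 lower and 2 higher with siTAZ #2 (14.4% and 14.1%). B3GAT3 was the only one of the 5 called with both siRNAs. It stood at 16.5 and 17.5 CPM in siNTC, 23.5 and 34.5 with siTAZ #1, and 33.4 and 31.3 with siTAZ #2. All 4 siTAZ libraries of B3GAT3 were above both controls, but the siTAZ #1 pair lay far apart. The log2 fold change was 0.77 ± 0.20 (FDR 0.047) with siTAZ #1 and 0.93 ± 0.20 (FDR 0.022) with siTAZ #2. Both B3GAT3 calls were lost without either siNTC library or either siTAZ #2 library, and that of siTAZ #1 also without siTAZ #1 replicate 2. A processed copy, B3GAT3P1, shares 9.19% of its 50-base windows.

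The xylosyltransferases parted. XYLT1 (31.6 and 37 CPM in siNTC) stood at 22.8 and 23.3 with siTAZ #1 and at 29.5 and 32.3 with siTAZ #2. Only the siTAZ #1 libraries were clearly below the controls, by 0.57 ± 0.14 (FDR 0.035), with -0.15 ± 0.14 for siTAZ #2 (FDR 0.45) and a difference between the siRNAs that missed the threshold (-0.42 ± 0.14, FDR 0.067). XYLT2 (74.4 and 72.2 CPM in siNTC) stood at 73.4 and 68 with siTAZ #1 and at 99.8 and 112 with siTAZ #2. The siTAZ #2 libraries of XYLT2 were above all others, by 0.53 ± 0.10 against siNTC (FDR 0.013), and the siRNAs differed by -0.58 ± 0.10 (FDR 0.0091). The XYLT1 call was lost without any 1 of the siNTC or siTAZ #2 libraries, and the XYLT2 call with siTAZ #2 without either siNTC library or siTAZ #2 replicate 2. Leaving out that last library also ended the difference of XYLT2 between the siRNAs.

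B3GALT6 stood at 38.4 and 34.9 CPM in siNTC, 53.2 and 59 with siTAZ #1, and 53.9 and 45.8 with siTAZ #2. It was above the controls in all 4 siTAZ libraries and passed the test with siTAZ #1 (0.61 ± 0.14, FDR 0.029), while siTAZ #2 gave 0.44 ± 0.14 (FDR 0.059), which passed in 8 of 17 other settings, those without siTAZ #1 replicate 1 or 2 included. Leaving out either siNTC library ended the call of B3GALT6 with siTAZ #1. B4GALT7, with -0.64 ± 0.17 for siTAZ #1, had an FDR of 0.05 and was not called. This difference passed with DESeq2, RLE or upper-quartile scaling, robust estimation, no filter, or a mean count of at least 50. It also passed in the fit without the genes from RANGAP1 to Y.

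Heparan sulfate chains are started by EXTL3, extended by the EXT1 and EXT2 copolymerase, and can be stopped at the first sugar by EXTL2. With siTAZ #2, 3 of these 4 genes fell and 0 rose (14.4% and 14.1% of all genes), while with siTAZ #1, 1 rose and 0 fell (10.8% and 9.78%). EXT1 stood at 428 and 424 CPM in siNTC, 478 and 443 with siTAZ #1, and 223 and 228 with siTAZ #2. Its siTAZ #2 libraries lay far below the other 4. EXT1 fell to 0.53 of siNTC with siTAZ #2 (log2 fold change -0.92 ± 0.08, FDR 0.0011) and was 0.11 ± 0.08 with siTAZ #1 (FDR 0.34), a difference between the siRNAs of 1.03 ± 0.08 (FDR 0.00099). EXT2, its partner, stood between 210 and 288 CPM in all 6 libraries and was called in no comparison. Per kilobase, the ratio of EXT1 to EXT2 was 2.11 and 2.17 in siNTC, 2.5 and 2.57 with siTAZ #1, and 1.12 and 0.964 with siTAZ #2.

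EXTL3 followed EXT1. It stood at 149 and 139 CPM in siNTC, 166 and 161 with siTAZ #1, and 84.1 and 93.7 with siTAZ #2. The siTAZ #2 pair was lowest, with a log2 fold change of -0.69 ± 0.09 (FDR 0.004), against 0.18 ± 0.09 (FDR 0.20) for siTAZ #1 and 0.88 ± 0.09 (FDR 0.0021) between the siRNAs. EXTL2 (chr1:101337928-101360735, GRCh37) stood at 46.3 and 51.4 CPM in siNTC, 85.2 and 79.9 with siTAZ #1, and 28 and 31.6 with siTAZ #2. Like SDC1, it was above the controls with one siRNA and below them with the other, with no overlap. EXTL2 rose by 0.76 ± 0.12 (FDR 0.011) with siTAZ #1 and fell by 0.71 ± 0.12 (FDR 0.0097) with siTAZ #2, and the siRNAs differed by 1.47 ± 0.12 (FDR 0.0013). The rise was lost without either siNTC library (FDR 0.10 and 0.074), and the fall without siNTC replicate 2 or siTAZ #2 replicate 1. The proliferation sum was also lower with siTAZ #2, at 877 and 828 CPM, and its part in these falls was not tested.

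Heparan sulfate is next modified by NDST1 and NDST2, which trade acetyl groups for sulfate, by the epimerase GLCE, and by sulfotransferases at position 2 (HS2ST1), 6 (HS6ST1) and 3 (HS3ST1, HS3ST3A1 and HS3ST3B1). Of the 7 tested, 4 rose and 0 fell with siTAZ #1 (10.8% and 9.78% of all genes), and 2 rose and 2 fell with siTAZ #2 (14.1% and 14.4%). HS3ST1 was not tested, since it had 7 counts or fewer in every library. GLCE stood at 60.9 and 48.7 CPM in siNTC, 105 and 128 with siTAZ #1, and 95.9 and 97.4 with siTAZ #2. HS2ST1, whose product sulfates the iduronic acid that GLCE makes, stood at 32.8 and 32.9 CPM in siNTC, 63.9 and 88 with siTAZ #1, and 53.7 and 51.5 with siTAZ #2. For both genes every siTAZ library was above both controls.

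GLCE rose 2.12-fold with siTAZ #1 (1.09 ± 0.15, FDR 0.0068) and 1.76-fold with siTAZ #2 (0.82 ± 0.15, FDR 0.012). HS2ST1 rose 2.31-fold (1.21 ± 0.17, FDR 0.007) and 1.60-fold (0.68 ± 0.17, FDR 0.032). A read-through gene on the same strand covers 10.7% of HS2ST1. The difference between the siRNAs passed the test for neither gene: it was 0.27 for GLCE (95% interval -0.10 to 0.63, FDR 0.23) and 0.53 for HS2ST1 (0.12 to 0.94, FDR 0.062). Without siNTC replicate 2, GLCE was called with neither siRNA, and without either siTAZ #2 library not with siTAZ #2. HS2ST1 was called with neither siRNA without either siNTC library, and not with siTAZ #2 without either siTAZ #2 library.

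The siRNAs split the enzymes that act later on the chain. HS3ST3A1 stood at 28.7 and 27.3 CPM in siNTC, 46.5 and 52.5 with siTAZ #1, and 27.8 and 29.2 with siTAZ #2. HS3ST3B1, its close relative nearby on chromosome 17, stood at 21.7 and 20.1, 34.5 and 35.1, and 18.5 and 20.4 CPM. Both were above all other libraries with siTAZ #1, while the siTAZ #2 libraries were near the controls. The log2 fold change with siTAZ #1 was 0.82 ± 0.12 for HS3ST3A1 (FDR 0.0086) and 0.74 ± 0.13 for HS3ST3B1 (FDR 0.014), and siTAZ #1 exceeded siTAZ #2 by 0.80 ± 0.12 and 0.84 ± 0.13 (FDR 0.0066 for both). They share 12.7% and 9.87% of their 50-base windows, so a part of their reads could be assigned to either or dropped. Leaving out either siNTC library ended both calls with siTAZ #1.

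HS6ST1 stood at 198 and 213 CPM in siNTC, 200 and 198 with siTAZ #1, and 135 and 143 with siTAZ #2. NDST1 stood at 303 and 335, 303 and 292, and 243 and 252 CPM. Both had their lowest libraries with siTAZ #2, below all others. HS6ST1 fell by 0.56 ± 0.08 (FDR 0.0054) with siTAZ #2 and differed between the siRNAs by 0.51 ± 0.08 (FDR 0.0069). NDST1 fell by 0.37 ± 0.08 with siTAZ #2 (FDR 0.024), and its difference between the siRNAs missed the threshold (0.27 ± 0.08, FDR 0.062). HS6ST1 shares 16.7% of its windows with the copy HS6ST1P1. Leaving out siNTC replicate 2 ended the HS6ST1 call with siTAZ #2 (FDR 0.054), and leaving out any 1 siNTC or siTAZ #2 library ended that of NDST1. NDST2 stood between 36.3 and 51 CPM, was called in no comparison, and is covered over 99% of its length by a read-through gene on the same strand.

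Outside the cell, SULF1 and SULF2 remove sulfate from position 6 of finished heparan sulfate, and heparanase (HPSE) cuts the chain. SULF1 had the largest fall of the 36 genes tested with each siRNA. It stood at 12 and 13.6 CPM in siNTC, 2.32 and 2.73 with siTAZ #1, and 3.46 and 3.20 with siTAZ #2, from 190 and 216, 36 and 89, and 74 and 53 counts. Every siTAZ library was far below both controls. SULF1 fell to 0.198 of siNTC with siTAZ #1 (-2.34 ± 0.22, FDR 0.0024) and to 0.26 with siTAZ #2 (-1.94 ± 0.22, FDR 0.0026), and the difference between the siRNAs missed the threshold (-0.39, 95% interval -0.93 to 0.15, FDR 0.24). SULF1 and CHSY1 are on the study's own list of genes lowered by both siRNAs, which was drawn from these libraries, so their direction is not independent evidence.

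SULF2 was a scarce transcript, with 13 to 29 counts in the siNTC libraries. It stood at 1.84 and 0.82 CPM in siNTC, 0.71 and 1.90 with siTAZ #1, and 5.28 and 4.83 with siTAZ #2. Both siTAZ #2 libraries were above the other 4, which overlapped among themselves. An antisense RNA overlaps 5.57% of the SULF2 transcript, and without a stated strand setting their reads cannot be told apart. The log2 fold change of SULF2 with siTAZ #2, 1.92 ± 0.57, did not reach the threshold (FDR 0.054), nor did its difference between the siRNAs (-1.89 ± 0.56, FDR 0.052). Both passed in other settings, the first in 7 and the second in 8 of 17, among them DESeq2, the exact test, the fit without the genes from RANGAP1 to Y, and those without siTAZ #1 replicate 1 or 2. HPSE, at 0.14 to 0.888 CPM and 3 to 21 counts, was called in no comparison. SULF1 exceeded SULF2 in siNTC by 2.27 against 0.349 CPM per kilobase.

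Chondroitin sulfate chains are started by CSGALNACT1 and CSGALNACT2 and extended by CHSY1, CHSY3 and the polymerizing factor CHPF. Of these 5 genes, 3 rose and 1 fell with siTAZ #2 (14.1% and 14.4% of all genes), and 2 rose and 1 fell with siTAZ #1 (10.8% and 9.78%). CSGALNACT2 (chr10:43633893-43680750, GRCh37) had the largest change of all the 36. It stood at 14.5 and 16.7 CPM in siNTC, 25.5 and 26.1 with siTAZ #1, and 111 and 113 with siTAZ #2. The groups did not overlap, and the siTAZ #2 pair stood far above the rest. CSGALNACT2 rose 1.66-fold with siTAZ #1 (0.73 ± 0.12, FDR 0.011) and 7.19-fold with siTAZ #2 (2.85 ± 0.12, FDR 0.00037), a difference of -2.12 ± 0.12 between them (FDR 0.00057). The smaller rise was lost without either siNTC library.

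Its relative CSGALNACT1 stood at 12.6 and 11.5 CPM in siNTC, 14 and 16.1 with siTAZ #1, and 25.5 and 27.8 with siTAZ #2. The siTAZ #2 libraries were again highest, 2.21-fold above siNTC (1.14 ± 0.16, FDR 0.005), while siTAZ #1 gave 0.32 ± 0.16 (FDR 0.21). The siRNAs differed for CSGALNACT1 by -0.82 ± 0.16 (FDR 0.014), a call lost without either siTAZ #2 library. Leaving out siNTC replicate 2 ended the rise with siTAZ #2 (FDR 0.052). Per kilobase, CSGALNACT2 was 1.14 and 1.42 times CSGALNACT1 in siNTC, 1.79 and 1.60 times with siTAZ #1, and 4.29 and 3.99 times with siTAZ #2.

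CHSY1 (chr15:101715932-101792253, GRCh37), a chondroitin synthase, fell with both siRNAs. It stood at 171 CPM in both siNTC libraries, 88.1 and 89.3 with siTAZ #1, and 107 in both libraries of siTAZ #2. Libraries of a group lay very close together, and no groups overlapped. CHSY1 fell by 0.95 ± 0.07 (FDR 0.0013) and by 0.68 ± 0.07 (FDR 0.0022). The difference between the siRNAs, -0.27 ± 0.07, passed at an FDR of 0.036, but no longer when any 1 of the 6 libraries was left out. CHSY3, a scarcer synthase, stood at 3.61 and 2.84 CPM in siNTC, 8 and 8.93 with siTAZ #1, and 8.27 and 4.89 with siTAZ #2. All siTAZ libraries of CHSY3 were above both controls. CHSY3 passed the test with siTAZ #1 (1.39 ± 0.32, FDR 0.032), though not without either siNTC library, and gave 1.03 ± 0.32 with siTAZ #2 (FDR 0.06), which passed in 7 of 17 other settings, those without siTAZ #1 replicate 1 or 2 included.

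CHPF stood at 47.2 and 58.3 CPM in siNTC, 37.8 and 37.5 with siTAZ #1, and 79.7 and 86.7 with siTAZ #2. The siTAZ #1 pair lay below the controls and the siTAZ #2 pair above them. The rise with siTAZ #2 was 0.66 ± 0.13 (FDR 0.017), and it was lost without siNTC replicate 1 or either siTAZ #2 library. With siTAZ #1 the value was -0.49 ± 0.13 (FDR 0.054), which passed without siTAZ #1 replicate 1 or 2 and in 6 of 17 other settings in all, and the siRNAs differed by -1.14 ± 0.14 (FDR 0.003).

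**Figure D4:**
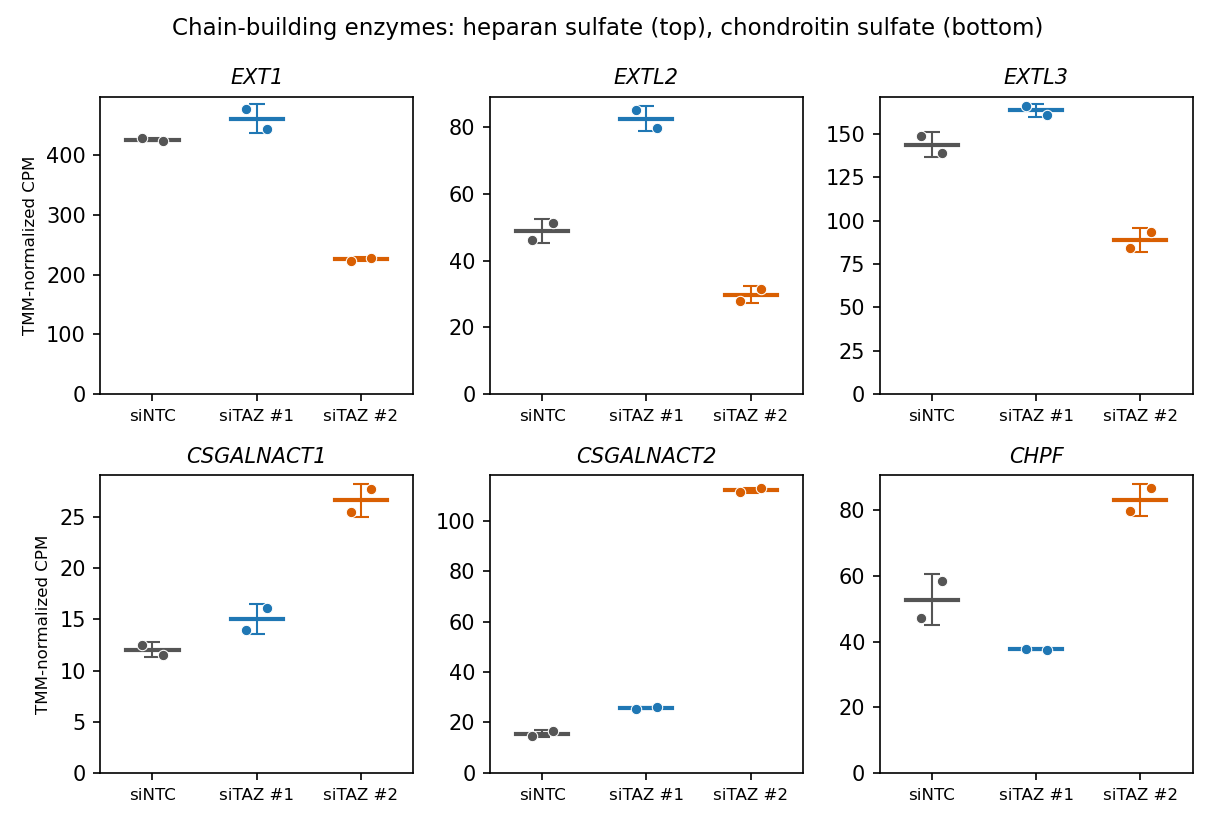
TMM-normalized CPM (vertical axis) of EXT1, EXTL2 and EXTL3 (top) and CSGALNACT1, CSGALNACT2 and CHPF (bottom) in each library, with a line for the mean and bars for the SD of the 2 libraries of a group. The siTAZ #2 libraries are lowest in the top panels (EXT1 at 223 and 228 CPM) and highest in the bottom panels (CSGALNACT2 at 111 and 113 CPM).

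Transcripts for starting, extending and stopping the chains were also summed by chain type. The 4 heparan sulfate genes summed to 111 and 110 CPM per kilobase in siNTC, 132 and 123 with siTAZ #1, and 71.4 and 78.9 with siTAZ #2. The 5 chondroitin sulfate genes summed to 60.5 and 64.3, 44 and 45.1, and 88 and 90.3. The ratio of the former to the latter was 1.83 and 1.71 in siNTC, 2.99 and 2.72 with siTAZ #1, and 0.811 and 0.874 with siTAZ #2. The sum of these 5 chondroitin genes thus exceeded the heparan sum with siTAZ #2 only. It leaves out CHPF2, a relative of CHPF outside the 37 genes. CHPF2 stood at 40.3 CPM per kilobase in siNTC, above CHSY1 at 36.7, and rose with both siRNAs (log2 fold change 0.47 and 0.94). The lower chondroitin sum and higher ratio with siTAZ #1 therefore hold for these 5 genes only. The members did not move as one: with siTAZ #2, CHSY1 fell while the other chondroitin genes called rose, and EXT2 was not called. Each sum is led by a few genes, it says nothing of enzyme activity or of the chains, and it was not tested.

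Chondroitin and dermatan sulfate are modified by the sulfotransferases CHST3, CHST11, CHST15 and UST and by the epimerase DSE. Of these 5 genes, 1 fell and 1 rose with siTAZ #1 (9.78% and 10.8% of all genes), and 0 fell and 2 rose with siTAZ #2 (14.4% and 14.1%). CHST3, which sulfates position 6, stood at 37.8 and 40.0 CPM in siNTC, 24.8 and 22.9 with siTAZ #1, and 37.4 and 42.3 with siTAZ #2. It was low in the siTAZ #1 libraries alone, by 0.71 ± 0.13 below siNTC (FDR 0.015), and differed between the siRNAs by -0.74 ± 0.13 (FDR 0.0093). The first call was lost without either siNTC library and the second without siTAZ #2 replicate 2.

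DSE, which turns chondroitin into dermatan, stood at 109 and 119 CPM in siNTC, 82.4 and 97 with siTAZ #1, and 174 and 160 with siTAZ #2. CHST15, which adds a further sulfate to sulfated galactosamine, stood at 21.4 and 18.7, 28.4 and 23.6, and 42.1 and 37.1 CPM. Both were highest with siTAZ #2, and DSE was below its controls with siTAZ #1. DSE rose by 0.55 ± 0.11 (FDR 0.016) with siTAZ #2, gave -0.35 ± 0.11 with siTAZ #1 (FDR 0.078) and differed by -0.90 ± 0.11 (FDR 0.0034). CHST15 rose by 0.98 ± 0.16 with siTAZ #2 (FDR 0.0078), gave 0.37 ± 0.16 with siTAZ #1 (FDR 0.15) and differed by -0.61 ± 0.16 (FDR 0.034). The DSE rise was lost without any 1 siNTC or siTAZ #2 library, and that of CHST15 without either siNTC library or siTAZ #2 replicate 1. The difference of CHST15 between the siRNAs was lost without any 1 library other than siTAZ #1 replicate 1. A read-through gene covers 7.21% of DSE.

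UST, which sulfates the uronic acid, stood at 36.5 and 29.1 CPM in siNTC, 51.5 and 52 with siTAZ #1, and 35.9 and 42.4 with siTAZ #2. Only the siTAZ #1 pair was clear of the controls, at 0.66 ± 0.16 (FDR 0.037), with 0.26 ± 0.16 for siTAZ #2 (FDR 0.28), and leaving out any 1 siNTC or siTAZ #2 library ended the call. CHST11, which sulfates position 4, stood between 6.65 and 11.7 CPM and was called in no comparison (log2 fold change 0.08 and 0.65). SLC26A2, the transporter that brings in sulfate, stood at 34.9 and 29.2 CPM in siNTC, 43 and 51 with siTAZ #1, and 21.4 and 14.7 with siTAZ #2. Its groups did not overlap. SLC26A2 fell by 0.83 ± 0.22 with siTAZ #2 (FDR 0.037), gave 0.55 ± 0.22 with siTAZ #1 (FDR 0.13) and differed by 1.38 ± 0.22 between the siRNAs (FDR 0.0074). Its fall was lost without either siNTC library or siTAZ #2 replicate 2.

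**Figure D5:**
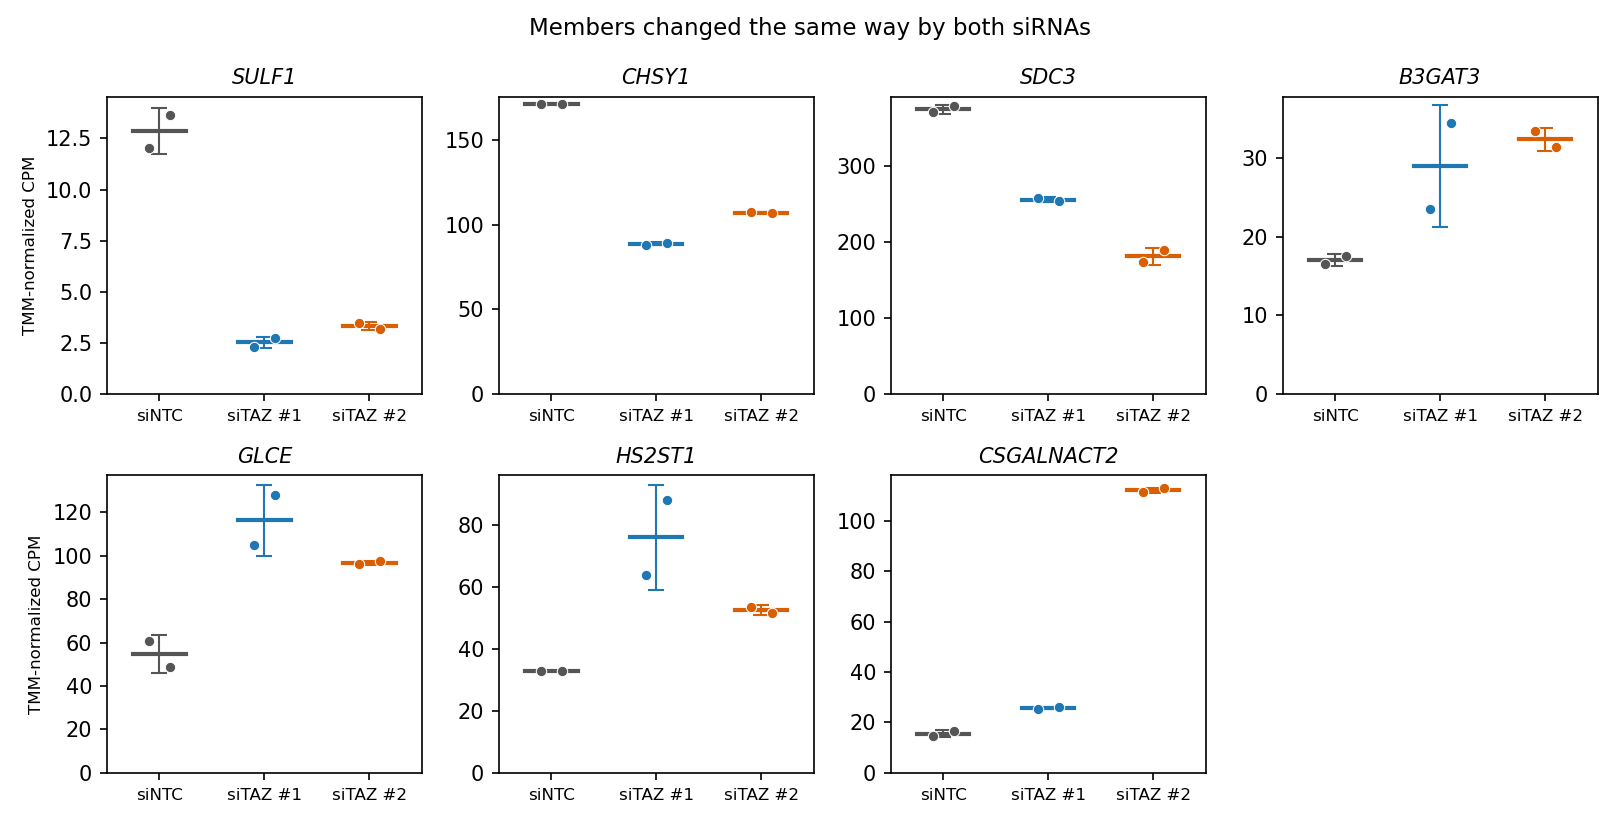
TMM-normalized CPM (vertical axis) of the 7 genes called the same way with both siRNAs, in each library, with a line for the mean and bars for the SD of the 2 libraries of a group. SULF1, CHSY1 and SDC3 are highest in siNTC, and B3GAT3, GLCE, HS2ST1 and CSGALNACT2 are lowest there, with the siTAZ #1 libraries of B3GAT3 at 23.5 and 34.5 CPM.

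The 7 genes that moved the same way with both siRNAs thus came from 5 roles: core proteins (SDC3), the linker (B3GAT3), heparan sulfate modification (GLCE and HS2ST1), extracellular editing (SULF1) and chondroitin sulfate building (CHSY1 and CSGALNACT2). Of these, the fall of SULF1 and of CHSY1 was called with both siRNAs in all 17 alternative settings. The sum of 10 fibroblast markers, led by collagens and VIM, was also lower with both siRNAs, at 23200 to 29000 CPM against 34900 and 35000. Its genes did not move as one: 4 fell and 2 rose with siTAZ #1, and 5 fell and 2 rose with siTAZ #2, with PDGFRB higher with both. The part of these markers in the changes was not tested. With siTAZ #2, where most of the calls in EXT1, EXTL2, EXTL3 and the chondroitin starters lie, the sum of proliferation genes was lower in both libraries, and its part was not tested.

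The 250 bases before the RefSeq start were searched on both strands for the core of the TEAD site, GGAATG or CATTCC, since TAZ acts through TEAD factors, and for the AP-1 site TGANTCA. Promoters were held for 32 of the 37 genes, and not for EXT1, EXTL3, SULF1, SDC2 and CSGALNACT1. The TEAD core occurred in 4 of the 32 (12.5%), namely EXT2, EXTL2, HS3ST3A1 and CHST15, and in 11.9% of 27305 promoters of the same length. The AP-1 letters occurred in NDST1 alone, 3.12% against 6.6%. The median GC content was 69.8%, against 58% of all. The promoters of the 3 genes that moved in opposite ways with the siRNAs are given here, from RefSeq on GRCh38.p14, 5′ to 3′ on the minus strand, which is the strand of all 3 genes, with capitals for the TEAD core. SDC1 is at chr2:20225476-20225725, SDC4 at chr20:45348425-45348674 and EXTL2 at chr1:100894843-100895092.
SDC1: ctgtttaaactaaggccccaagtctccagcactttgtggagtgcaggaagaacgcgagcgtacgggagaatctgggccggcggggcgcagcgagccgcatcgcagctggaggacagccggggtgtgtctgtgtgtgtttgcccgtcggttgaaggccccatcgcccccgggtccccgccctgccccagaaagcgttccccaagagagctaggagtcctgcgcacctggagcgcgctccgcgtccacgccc
SDC4: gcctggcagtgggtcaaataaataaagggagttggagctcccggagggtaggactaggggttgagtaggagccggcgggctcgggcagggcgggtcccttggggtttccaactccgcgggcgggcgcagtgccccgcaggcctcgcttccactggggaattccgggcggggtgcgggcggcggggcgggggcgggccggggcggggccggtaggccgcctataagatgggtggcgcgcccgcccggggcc
EXTL2: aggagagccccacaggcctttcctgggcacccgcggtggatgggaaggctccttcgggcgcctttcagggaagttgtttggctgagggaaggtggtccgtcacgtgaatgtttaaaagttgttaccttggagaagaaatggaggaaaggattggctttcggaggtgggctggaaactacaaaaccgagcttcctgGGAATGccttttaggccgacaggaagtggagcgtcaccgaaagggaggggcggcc
The core in EXTL2 begins 55 bases before the start, and neither motif occurs in the windows of SDC1 and SDC4. A match is a description of these letters and not of binding.

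The chains also depend on genes outside the 37, of which 59 in 4 lists were examined and 46 tested. Of the 46, 3 lie in the stretch nearly missing from siTAZ #1 replicate 2, and 0 of those 3 were called against siNTC. With siTAZ #1, 8 were lower and 6 higher, and with siTAZ #2, 9 lower and 11 higher, to be read against 9.78%, 10.8%, 14.4% and 14.1% of all genes. Of the 12 tested for precursor supply and the linker kinase, 2 fell with both siRNAs and 0 rose with both (3.74% and 5.49% of all genes). UGDH, which makes the glucuronic acid donor of both chains, stood at 211 and 198 CPM in siNTC, 147 and 168 with siTAZ #1, and 106 in both libraries of siTAZ #2. All siTAZ libraries of UGDH were below the controls, with log2 fold changes of -0.38 ± 0.09 (FDR 0.039) and -0.94 ± 0.09 (FDR 0.0019). ACPL2, now called PXYLP1, which removes phosphate from the linker's xylose, went from 16 and 13.4 CPM to 7.68 and 6.32 and to 5.42 and 6.64 (-1.07 ± 0.22, FDR 0.024, and -1.29 ± 0.22, FDR 0.01).

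Among the other chain enzymes, 7 of 15 were tested. DSEL, a relative of DSE with the same reaction, fell with both siRNAs, from 238 and 225 CPM to 166 and 164 and to 101 and 97.7. CHPF2, a relative of CHPF, rose with both, from 163 and 159 CPM to 242 and 205 and to 281 and 335. The values of DSEL were -0.49 ± 0.08 (FDR 0.0093) and -1.22 ± 0.08 (FDR 0.00064), and those of CHPF2 0.47 ± 0.12 (FDR 0.046) and 0.94 ± 0.13 (FDR 0.0044). DSE and DSEL thus moved in opposite ways with siTAZ #2.

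Of the 12 other core proteins tested, 3 were lower and 1 higher with siTAZ #1 (9.78% and 10.8% of all genes). With siTAZ #2, 3 were lower and 4 higher (14.4% and 14.1%). TGFBR3, betaglycan, which presents transforming growth factor beta, stood at 88.4 and 95.5 CPM in siNTC, 36 and 31.1 with siTAZ #1, and 12 and 15.3 with siTAZ #2. It fell in all 4 siTAZ libraries, by 1.45 ± 0.16 (FDR 0.0039) and 2.75 ± 0.17 (FDR 0.00064), and it too is on the study's list drawn from these libraries. Of the 15 genes for breakdown in the lysosome and for sulfatase activation, 1 was lower and 3 higher with siTAZ #1 (9.78% and 10.8% of all genes). With siTAZ #2, 0 were lower and 4 higher (14.4% and 14.1%).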

How the data were processed

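Expression in 6 HFL-1 libraries (siNTC, siTAZ #1 and siTAZ #2, 2 each) came from 1 deposited table of raw counts. The authors aligned Ion Proton reads to hg19 using TMAP, counted them over genes with HTSeq 0.6.1 (version per the labels) and left the counts unnormalized. The paper calls the annotation Ensembl, and the strand setting is not given in the sources used here. Of 23368 entries, 13 show a date instead of a symbol and were left out (0.0458% to 0.0506% of counts).

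Low genes were removed by filterByExpr, and TMM-scaled counts of all 6 libraries were fitted together with edgeR 4.0.16 under R 4.3.3. The quasi-likelihood test was used, and p-values were adjusted by Benjamini-Hochberg (FDR, threshold 0.05). Each standard error was the absolute log2 fold change over the root of F, and intervals have a confidence level of 0.95. With 2 libraries per group the p-values measure the spread between these libraries (duplicate transfections for the TAZ siRNAs, per the methods), and no permutation of the groups can reach a p under 0.05. Pairs of libraries of a group differed by more than sampling noise. Alternatives were DESeq2 1.42.0, edgeR's exact test, other scalings, filters and thresholds, fitting the 4 libraries of a comparison alone, a replicate block, dropping the genes from RANGAP1 to Y, and leaving out each library.

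Positions and lengths come from GENCODE on GRCh37, 1 canonical transcript per gene, and promoters from RefSeq on GRCh38.p14. The genes and lists were chosen with earlier results of these data known. Each of the 37 genes is accounted for, and those called in any comparison, SULF1, SULF2 and the syndecans are given library by library. Of the wider lists, genes called the same way with both siRNAs are named, apart from an item that is not reported here.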

Additional observations from a re-analysis of the deposited data

Results flagged for a closer look

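For 20 of the 36 genes tested, the effects of the 2 siRNAs differed by the test of the difference itself (log2 difference, siTAZ #1 minus siTAZ #2, FDR under 0.05), against 28.6% of all genes. They are listed as values, and no cause was tested.

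Of the core proteins, the difference was 1.41 for SDC1, 0.50 for SDC3, -1.83 for SDC4, 0.38 for GPC1 and 0.87 for GPC6. Of the linker enzymes it was -0.58 for XYLT2. Of the genes that extend, stop or start heparan sulfate chains it was 1.03 for EXT1, 1.47 for EXTL2 and 0.88 for EXTL3. Among the enzymes that modify heparan sulfate it was 0.80 for HS3ST3A1, 0.84 for HS3ST3B1 and 0.51 for HS6ST1. Among those that build chondroitin sulfate it was -0.27 for CHSY1, -1.14 for CHPF, -0.82 for CSGALNACT1 and -2.12 for CSGALNACT2. Among those that modify it, the values were -0.74 for CHST3, -0.61 for CHST15 and -0.90 for DSE. The sulfate transporter SLC26A2 had 1.38.

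By role, EXT1, EXTL2 and EXTL3, the 3 heparan sulfate modifying enzymes and the 2 glypicans in this list were all higher with siTAZ #1 than with siTAZ #2. The 4 chondroitin sulfate builders and the 3 modifiers in it were all higher with siTAZ #2, and the syndecans were split. The list holds only genes that passed this test. Of those that did not, EXT2 (-0.26), NDST2 (-0.23), CHSY3 (0.36) and UST (0.40) went against their role. NDST1 (0.27), GLCE (0.27), HS2ST1 (0.53) and CHST11 (-0.57) went with it. The wider lists are not part of this pattern, and a called gene there breaks it. DSEL, a relative of DSE, was higher with siTAZ #1 (0.73, FDR 0.0021). Its mean in siNTC was 232 CPM, against 114 for DSE. CHPF2 (-0.46, FDR 0.039) and GPC5 (0.99, FDR 0.017) went with their role. CHST7 (-3.74) did too, but lies in the stretch nearly missing from siTAZ #1 replicate 2. The glypicans GPC2 (-0.49) and GPC4 (-0.98) went against theirs and were not called.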

How the results depend on the processing

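Each count of genes was recomputed under 18 alternatives, and each gene's value under 17 of them. In the order higher and lower between the siRNAs, higher and lower with siTAZ #1, higher and lower with siTAZ #2, higher and lower with both, and opposite, the counts were 11, 9, 12, 6, 10, 11, 4, 3 and 3 as reported. They became 14, 12, 14, 9, 13, 11, 6, 3 and 6 with DESeq2, 6, 5, 3, 3, 15, 11, 3, 2 and 1 with the exact test on 4 libraries, and 11, 7, 9, 5, 15, 11, 5, 3 and 3 in a fit of 4. At an FDR of 0.1 they were 14, 13, 13, 9, 15, 11, 6, 3 and 5, with robust estimation 13, 11, 13, 9, 13, 11, 6, 3 and 5, and without the genes from RANGAP1 to Y 13, 12, 14, 9, 15, 11, 6, 3 and 6. A mean count of at least 50, the absence of a filter, and scaling by RLE, by upper quartile or by library totals left every count within 1.5 times. The share of all genes called moved as well. Between the siRNAs, with siTAZ #1 and with siTAZ #2 it was 28.6%, 20.6% and 28.5% as reported. It became 36.3%, 29% and 35.3% with DESeq2, and 10.7%, 7.74% and 46.7% with the exact test. In a fit of 4 it was 20%, 14.7% and 44.3%, and without the genes from RANGAP1 to Y 38%, 30.6% and 38.7%.

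Libraries with the same replicate number had correlations of deviations of -0.01 (siNTC and siTAZ #1) and 0.02 (siNTC and siTAZ #2) over 11531 genes. For siTAZ #1 and siTAZ #2 it was -0.28. None reached the 0.1 set for pairing by number. The negative value means that siTAZ libraries with unlike numbers tended to deviate alike. A block by number does not model this, and its cause was not tested. With the replicate block the counts were 11, 8, 7, 5, 9, 9, 2, 3 and 3, and calls were lost for XYLT1, B3GALT6, B3GAT3, NDST1, HS2ST1, CHSY1 (between the siRNAs), CHSY3, UST, SLC26A2 and GPC1.

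Leaving out 1 library gave 10 to 13 higher and 4 to 11 lower between the siRNAs, 1 to 14 higher and 3 to 8 lower with siTAZ #1, 3 to 15 higher and 7 to 11 lower with siTAZ #2, 0 to 6 higher and 2 to 3 lower with both, and 2 to 5 opposite. The lowest counts of higher genes with siTAZ #1, with siTAZ #2 and with both came without siNTC replicate 2. The share of all genes called moved too: in every comparison it was lower without any siNTC or siTAZ #2 library. Without either siTAZ #1 library it was higher. The counts here are to be read beside that.

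Of 59 calls, 22 held in every alternative. Against siNTC, SULF1, CHSY1 and SDC4 alone did so with siTAZ #1, and they also held with siTAZ #2. The exact test lost 12 of 18 calls with siTAZ #1, 0 of 21 with siTAZ #2 and 10 of 20 between the siRNAs. In that test EXTL2, SDC1 and SDC3 with siTAZ #1 had an FDR of 0.17, 0.098 and 0.26. Leaving out 1 library turned the sign of 6 differences: B3GAT3 between the siRNAs (-0.46 to 0.10, the highest without siTAZ #1 replicate 1), XYLT2 with siTAZ #1 (-0.11 to 0.00, the highest without siTAZ #1 replicate 2), SULF2 with siTAZ #1 (-0.90 without siTAZ #1 replicate 2 to 0.70, with -0.46 without siNTC replicate 2 and -0.01 in the exact test), and, with siTAZ #2, CHST3 (-0.08 to 0.12), HS3ST3A1 (-0.04 to 0.06) and SDC2 (-0.12 to 0.25), each lowest without siTAZ #2 replicate 2. None of these was called as reported. The cause of these changes was not tested. Calls were also gained: beside those given with the genes, without siTAZ #1 replicate 1 for GLCE and HS2ST1 (between the siRNAs) and SLC26A2 (siTAZ #1), and without siTAZ #1 replicate 2 for NDST1 and SDC2 (between the siRNAs) and DSE (siTAZ #1). Of the genes called in no comparison as reported, B4GALT7 (siTAZ #1 and between the siRNAs) and EXT2 (between the siRNAs) also gained calls without siTAZ #1 replicate 1. CHST11 and NDST2 (siTAZ #2) did so without siTAZ #1 replicate 1 or 2. HPSE had 3 to 21 counts and HS3ST1 at most 7 per library.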
